A study of Mus musculus with 7 samples.

Results

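VH5-1 (Ighv5-1) is a variable (V) segment of the mouse immunoglobulin heavy chain locus that the RefSeq gene table lists as a pseudogene. It is the V segment with junctions nearest to the diversity (D) segments. It lies 5.57 kb nearer to them than VH81X, the first functional V segment. Its joins were taken as the deletional junctions in a fixed window on chromosome 12, which reaches 100 bases past the outermost of them on each side. The files' reference is named mm9 in the submitters' processing notes. This window held 321 junctions among 95203 V junctions, or 0.337%, and VH5-1 was 1 of 158 V segments with at least 10 junctions.

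The study sequenced junctions from the JH4 coding end by high-throughput genome-wide translocation sequencing (HTGTS), a method that finds what a chosen DNA end has been joined to. Pro-B cells, which are precursors that rearrange the heavy chain locus, were sorted by the markers B220+CD43highIgM-. They came from the bone marrow of 129SVE mice aged 4 to 6 weeks. WT mice gave 3 libraries, and mice named VH81X-CBEscr/scr gave 4. CBE stands for CTCF-binding element, and the genotype name was taken to mean that both alleles have this element scrambled at VH81X, although no label states it in full. The series compares the use of VH segments between WT and mutant cells. No label ties each library to a mouse of its own, so the p-values here reflect the spread between libraries, which may be technical. The reads run from the V coding end into the exon, so neither the element beside VH81X nor the recombination signal of VH5-1 was sequenced.

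In developing B cells, the RAG enzyme first joins a D segment to a JH segment and then a V segment to that DJ join. RAG cuts at recombination signal sequences that flank each segment, and bases are trimmed and added at the ends before they are joined. CTCF-binding elements near V segments are known to hold chromatin loops in place, and the element beside VH81X is known to raise the use of that segment. A pseudogene can still be cut and joined if its recombination signal works, although no heavy chain can be made from it.

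The exon of VH5-1 was read from the consensus of its own joins over the 294 bases that the gene table gives as its length. It lies at chr12:114830805-114831098 on the minus strand, and each base was covered by at least 45 reads. It is shown beside VH81X (chr12:114836377-114836670, minus strand) because the stretches differ in the codon given in capitals. Both are written 5′ to 3′ on the coding strand, with the end that is joined last.
VH5-1: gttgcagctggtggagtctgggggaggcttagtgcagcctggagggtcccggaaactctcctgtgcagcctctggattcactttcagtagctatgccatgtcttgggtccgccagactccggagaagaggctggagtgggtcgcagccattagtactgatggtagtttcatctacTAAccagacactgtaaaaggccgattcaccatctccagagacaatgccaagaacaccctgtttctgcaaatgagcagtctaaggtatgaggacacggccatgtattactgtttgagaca
VH81X: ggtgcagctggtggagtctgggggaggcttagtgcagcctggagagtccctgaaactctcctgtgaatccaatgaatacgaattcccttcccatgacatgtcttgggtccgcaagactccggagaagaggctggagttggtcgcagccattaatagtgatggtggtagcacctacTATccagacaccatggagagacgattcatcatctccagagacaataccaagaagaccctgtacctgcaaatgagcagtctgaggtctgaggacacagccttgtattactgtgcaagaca

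The capitals in VH5-1 are a TAA stop codon at bases 176 to 178 of the stretch (chr12:114830921-114830923), 36 codons before the conserved cysteine codon at its end. The stop was present in 204 of the 207 reads that covered it, or 98.6%. No stop codon in the same frame was found in the same stretch of VH81X, VH2-2 or VH5-4, the next segments upstream. A stop codon inside the exon ends translation whatever the frame of the join to JH4. VH5-1 shared 261 of 294 bases with VH5-4 (88.8%) and 248 of 294 with VH81X (84.4%). With VH2-2, a member of another family, it shared 37.8% when compared without gaps.

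The ends that are joined are shown next because they hold the cysteine codon, in capitals, from which the reading frame was counted. VH5-1 differed from its VH5 neighbours in the codon after that cysteine.
VH5-1: ggccatgtattacTGTttgagaca
VH81X: agccttgtattacTGTgcaagaca
VH2-2: agccatatattacTGTgccagaaa
VH5-4: agccatgtattacTGTgcaagaga

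Depth ran from 31986 to 46915 junctions per library, of which 10961 to 16874 were V junctions. Lines marked as duplicates made up 71.8% to 84.8% of a library, with the highest share in WT replicate 2. Lines were therefore counted in 2 ways, as all deposited lines and as distinct joins, which differ within a library in junction position, bait end or inserted bases. The reads carry no molecular identifier, so copies of a molecule cannot all be told apart. The intervals (95%, Wilson) and the limits from a count of 0 cover counting error only.

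The 321 VH5-1 lines came from 175 distinct joins, and none of these was shared between libraries. All 321 reads matched the VH5-1 consensus better than that of any other V segment. That consensus was built from the same reads, so the match is no independent check of their assignment. Of the lines placed elsewhere, 3 matched the VH5-1 consensus best. The VH5-1 reads differed from the files' reference in 0.528% of 55266 aligned bases. No line of the 264791 joined VH5-1 in the inverted orientation, which allows up to 0.935% of the number of VH5-1 joins.

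VH5-1 made up 0.403% of V junctions in WT replicate 1 (68 lines, interval 0.318% to 0.511%). WT replicate 2 had 0.128% (14 lines, 0.0761% to 0.214%), and WT replicate 3 had 0.678% (101 lines, 0.559% to 0.823%). The 3 WT intervals did not overlap, so the WT libraries differed from each other by more than the counting error of lines. The VH81X-CBEscr/scr libraries held 0.365% (44 lines, 0.272% to 0.490%), 0.257% (30 lines, 0.180% to 0.367%), 0.169% (22 lines, 0.111% to 0.255%) and 0.267% (42 lines, 0.198% to 0.361%). All 4 mutant shares lay inside the WT range, between the lowest and the middle WT library.

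**Figure D1:**
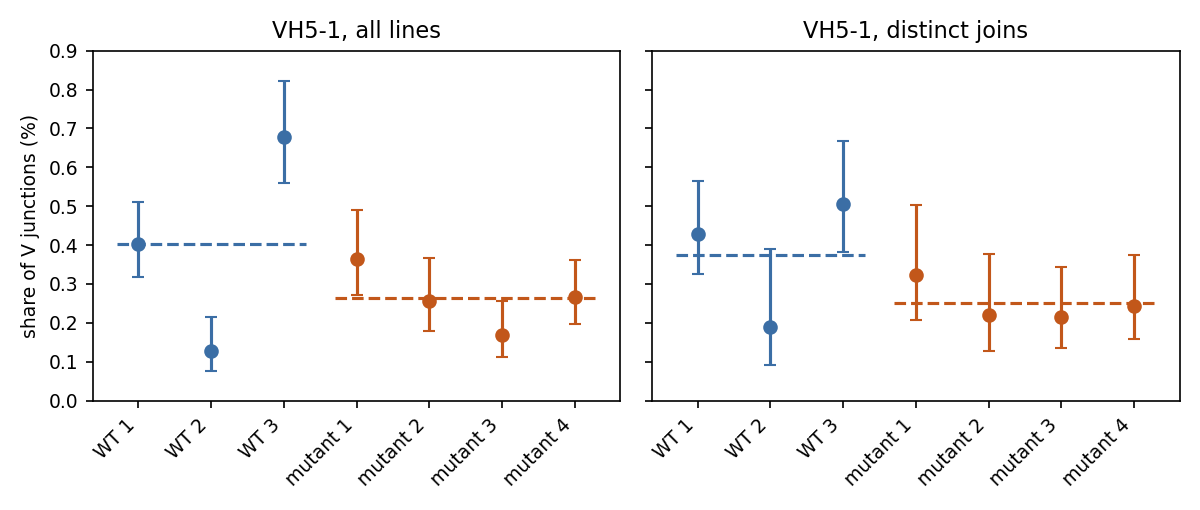
Share of V junctions that joined VH5-1 in each library (y axis, percent), counted over all lines (left) and over distinct joins (right), with 95% Wilson intervals as bars and group means as dashed lines. WT replicate 2 is the lowest and WT replicate 3 the highest library in both panels, and the 4 VH81X-CBEscr/scr libraries lie between them.

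On average VH5-1 took 0.403% ± 0.275 of V junctions in WT (SD, n = 3) and 0.265% ± 0.0804 in the mutant (SD, n = 4). The mean log2 share differed by -0.36, and the two-sided exact permutation test over 35 splits gave p = 0.629. Its smallest possible p was 0.0286. The difference was thus smaller than the spread between WT libraries. With VH81X left out of the total, the means were 0.446% and 0.265% (exact permutation p = 0.457).

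Among all V segments, limma-voom gave VH5-1 a log2 fold change of -0.47 ± 0.33 (SE), mutant over WT, with a 95% interval of -1.12 to 0.19. The Benjamini-Hochberg adjusted p was 0.696. In that fit 6 of 129 segments (4.65%) passed an adjusted p of 0.05, and VH5-1 was not among them. VH81X was the 1 segment that fell (0.775% of those tested). The 5 that rose (3.88%) included VH2-2 and VH5-4. The groups did not overlap in 10 of the 129 segments (7.75%), while VH5-1 overlapped.

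The call on VH5-1 depended on the WT libraries. Without WT replicate 2, the log2 fold change was -1.01 with an adjusted p of 0.0178 in limma-voom, in a fit that called 6 of 130 segments (4.62%). Without WT replicate 3 it was 0.06 (adjusted p = 0.980), and the mean shares were then 0.265% in both groups. WT replicates 2 and 3 were read in the same sequencing run, and no run held both genotypes, so run and genotype cannot be told apart.

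Over distinct joins the WT spread was narrower, the WT intervals overlapped and the libraries kept their order. VH5-1 had 50, 7 and 49 distinct joins in WT replicates 1, 2 and 3, or 0.429%, 0.189% and 0.506% of distinct V joins. The mutant libraries had 19, 13, 17 and 20, or 0.322%, 0.220%, 0.214% and 0.243%. WT replicate 2 also had the fewest distinct V joins of all libraries, 3694, against 5902 to 11648 in the others. The group means were 0.375% ± 0.165 (SD, n = 3) and 0.25% ± 0.0497 (SD, n = 4), and the exact permutation p was 0.257. In limma-voom on distinct joins, the log2 fold change was -0.73 with an unadjusted p of 0.0129 and an adjusted p of 0.181.

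VH5-1 was seen in many separate joins in most libraries. It averaged 1.29 to 2.32 lines per distinct join, and 3 to 37 of its joins in a library were seen in a single line. In WT replicate 3 the largest join had 14 of 101 lines, and in VH81X-CBEscr/scr replicate 2 it had 8 of 30.

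The largest VH5-1 join of each library is shown with 12 bases of VH5-1, the inserted bases in capitals and 12 bases of JH4. These joins show where the V end stood when it was joined and what D sequence was kept. WT replicate 1 had 5 joins of equal size, and VH81X-CBEscr/scr replicate 1 had 2. One of each is shown.
WT replicate 1, in frame: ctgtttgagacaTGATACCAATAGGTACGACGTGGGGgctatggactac
WT replicate 2, out of frame: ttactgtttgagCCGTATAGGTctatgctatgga
WT replicate 3, out of frame: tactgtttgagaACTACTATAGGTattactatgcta
VH81X-CBEscr/scr replicate 1, out of frame: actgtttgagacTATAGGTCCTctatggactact
VH81X-CBEscr/scr replicate 2, in frame: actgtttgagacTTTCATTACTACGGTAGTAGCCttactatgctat
VH81X-CBEscr/scr replicate 3, in frame: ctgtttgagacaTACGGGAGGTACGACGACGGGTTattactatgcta
VH81X-CBEscr/scr replicate 4, out of frame: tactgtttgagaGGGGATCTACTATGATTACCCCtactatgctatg

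In rank by mean share, VH5-1 stood at 73 of 158 V segments in WT and at 83 in VH81X-CBEscr/scr. In WT its neighbours were V_115714798 above (0.403% ± 0.105) and V_117490300 below (0.393% ± 0.148), both n = 3. Segments without a name from the gene table are called by their most frequent junction position. In the mutant its neighbours were V_115073093 above (0.270% ± 0.0885) and VH2-4 below (0.259% ± 0.0715), both n = 4. Neighbours in rank are by choice close in mean, and their spread overlaps that of VH5-1.

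In WT, VH5-1 was used far less than the next used segments upstream, and in the mutant far less than VH2-2 and VH5-4. VH81X, the V segment most used in WT, had 8.95%, 9.18% and 10.1% of V junctions in the WT libraries and 0.382%, 0.0686%, 0.107% and 0.165% in the mutant libraries. VH2-2, 15.3 kb upstream of VH5-1, had 6.04%, 5.33% and 5.35% in WT and 11.7%, 14.1%, 9.98% and 10.6% in the mutant. VH5-4, 24.6 kb upstream, had 3.43%, 2.36% and 3.18% in WT and 5.27%, 4.82%, 4.64% and 4.13% in the mutant. For these 3 segments the groups did not overlap, whereas for VH5-1 they did.

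**Figure D2:**
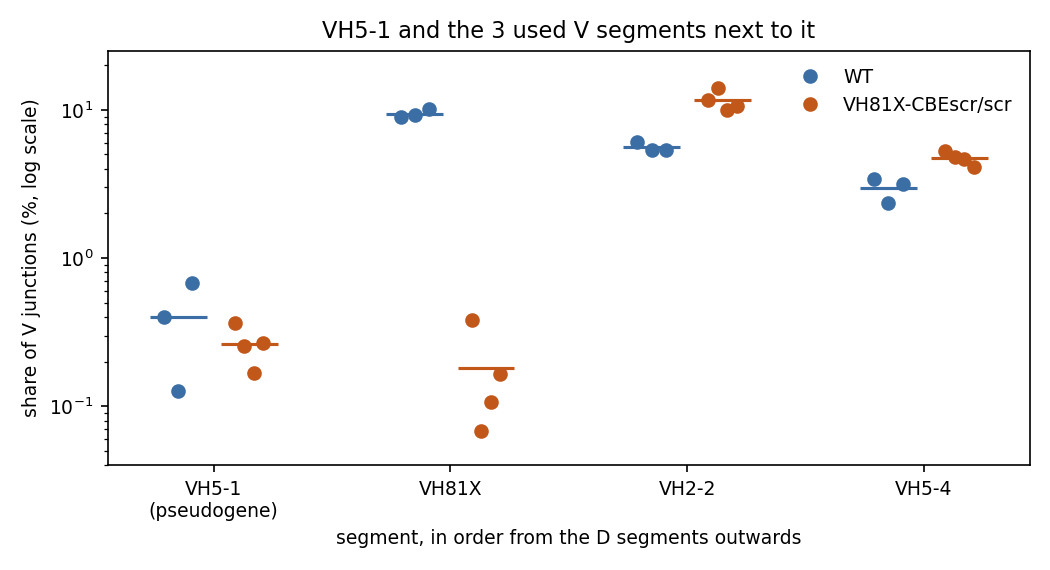
Share of V junctions (y axis, percent, log scale) of VH5-1, VH81X, VH2-2 and VH5-4, with 1 point per library and group means as lines. The VH81X shares are 8.95% or more in WT and 0.382% or less in the mutant, VH2-2 and VH5-4 are higher in every mutant library than in any WT library, and the VH5-1 groups overlap.

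In the mutant, VH81X stood near the level of VH5-1. WT libraries had 22.2, 71.9 and 14.9 VH81X lines for each VH5-1 line, and mutant libraries had 1.05, 0.267, 0.636 and 0.619. The mean ratio was 36.3 ± 31.0 (SD, n = 3) in WT and 0.642 ± 0.318 (SD, n = 4) in the mutant. The mean log2 ratio differed by -5.64, with an exact permutation p of 0.0286, the smallest the design allows. The VH81X shares by themselves already separated the groups, so this p does not bear on a change in VH5-1. In 3 of 4 mutant libraries VH5-1 had more lines than VH81X.

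For each VH5-1 line there were 15, 41.7 and 7.89 VH2-2 lines in WT and 32.0, 54.9, 59.1 and 39.8 in the mutant. The groups overlapped through WT replicate 2. The mean log2 ratio was 1.41 higher in the mutant, with an exact permutation p of 0.0857. Over distinct joins the difference was 1.48 with an exact p of 0.0286. On lines not marked as duplicates it was 0.90 (exact p = 0.286), without WT replicate 3 it was 0.85 (exact p = 0.267), and without WT replicate 2 it was 2.05 (exact p = 0.0667). These ratios were chosen after the data were seen.

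The other pseudogenes near VH5-1 had 1 junction at most, against the 321 of VH5-1. Between VH5-1 and VH5-9, 88.8 kb upstream, the table lists 6 other V pseudogenes, of which 5 had no junction and Ighv5-3 had 1. The nearest, Ighv2-1, lies 1.32 kb from VH5-1 and had 0 of 95203 V junctions, which allows a share of up to 0.00315%. The 7 functional V segments of the same stretch all had junctions, from 183 in VH2-4 to 8430 in VH2-2. These positions were set by spacing from a table of another assembly (GRCm38.p6), with 60 bases of margin on each side, and were not checked on a genome of the files' build.

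VH5-1 junctions lay in 27 bases, from chr12:114830803 to chr12:114830829. The most frequent position, chr12:114830805, is taken here as the intact coding end, since the recombination signal itself was not read. From that position to 3 bases into the exon there were 253 of 321 lines (78.8%). A further 13 lines lay past it, on the side of the recombination signal, and 12 (3.74%) had lost 10 bases or more, up to 24.

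**Figure D3:**
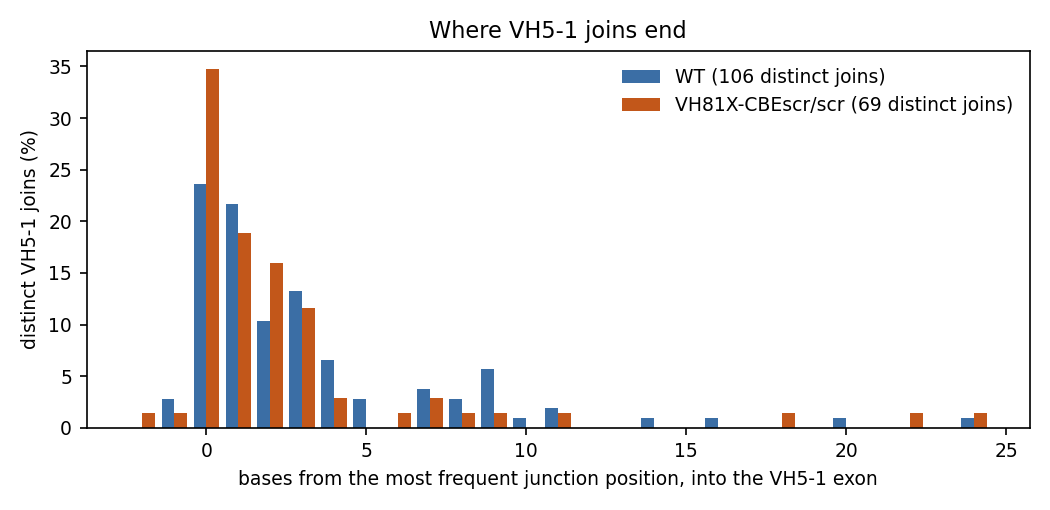
Distance of distinct VH5-1 joins from the most frequent junction position (x axis, bases into the exon) as a percent of the distinct joins of each genotype (y axis), with 106 joins in WT and 69 in VH81X-CBEscr/scr. In both genotypes most joins fall between 0 and 3 bases, with single joins out to 24 bases.

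The mean number of bases lost from the VH5-1 end was 3.06, 2.21 and 2.56 in WT replicates 1 to 3. It was 1.73, 1.60, 2.45 and 2.95 in the mutant replicates. The groups overlapped, with means of 2.61 ± 0.424 (SD, n = 3) and 2.18 ± 0.636 (SD, n = 4), a difference of -0.43 and an exact permutation p of 0.314. The difference was -0.21 without WT replicate 1, -0.28 without mutant replicate 1, -0.23 without mutant replicate 2 and -0.69 without mutant replicate 4. Lines past the intact coding end were counted as having lost 0 bases. The share of lines that had lost 0 bases ran from 13.6% to 68.2%, and both ends of this range were mutant libraries.

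In WT, VH5-1 ends had lost more bases than VH81X ends in each of the 3 libraries, where VH81X had lost 1.58, 1.95 and 1.69 on average. The mean difference within a library was 0.874 ± 0.607 bases (SD, n = 3) over lines and 1.38 ± 0.398 over distinct joins. The exact sign-flip test gave p = 0.25 for both, the smallest that 3 pairs allow.

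Every VH5-1 join had inserted bases between the V end and JH4, from 1 to 29 with a median of 18, against 17 in the other V segments and 17 in VH81X. These bases hold the D segment and added bases. The mean inserted length was 16.0, 12.6 and 17.8 bases in WT and 19.5, 18.1, 17.5 and 15.2 in the mutant. Here too the groups overlapped, with means of 15.4 ± 2.64 (SD, n = 3) and 17.6 ± 1.78 (SD, n = 4), a difference of 2.13 and an exact permutation p of 0.257. The difference was 0.695 without WT replicate 2 and 3.29 without WT replicate 3.

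VH5-1 joins were less often in frame than other V joins. A join is in frame when the cysteine codon of V and the tryptophan codon of JH4 are read in the same frame, which a random join meets in about 1 of 3 cases. Frame could be read in 145 of the 158 V segments. Over distinct joins pooled from all libraries, 48 of 175 VH5-1 joins were in frame, or 27.4% (interval 21.4% to 34.5%). This compares with 55.7% of 52319 joins of other V segments and 30.1% of 2135 VH81X joins.

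By library, 33.8%, 35.7% and 20.8% of VH5-1 lines were in frame in WT, and 13.6%, 60%, 27.3% and 28.6% in the mutant. Other V lines of the same libraries were in frame in 57.0%, 52.7% and 53.8% of cases in WT and in 49.5%, 55.2%, 56.7% and 58.1% in the mutant. VH5-1 was lower in 6 of 7 libraries. The exception was VH81X-CBEscr/scr replicate 2, in which 1 in-frame join had 8 of 30 lines. The mean difference within a library was -23.3 percentage points ± 13.9 (SD, n = 7), with an exact sign-flip permutation p of 0.0312. Leaving out any 1 library other than that one gave -24.4 to -21.2 points with an exact p of 0.0625.

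Over distinct joins the difference was -26.8 points ± 12.9 (SD, n = 6), lower in 6 of 6 libraries, with an exact sign-flip p of 0.0312, the smallest that 6 pairs allow. WT replicate 2 was left out of that test with 7 distinct joins. In-frame distinct joins made up 30%, 28.6% and 24.5% of VH5-1 joins in WT and 15.8%, 53.8%, 17.6% and 30% in the mutant. Counted on lines not marked as duplicates, the difference was -21.7 points with an exact p of 0.0625.

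**Figure D4:**
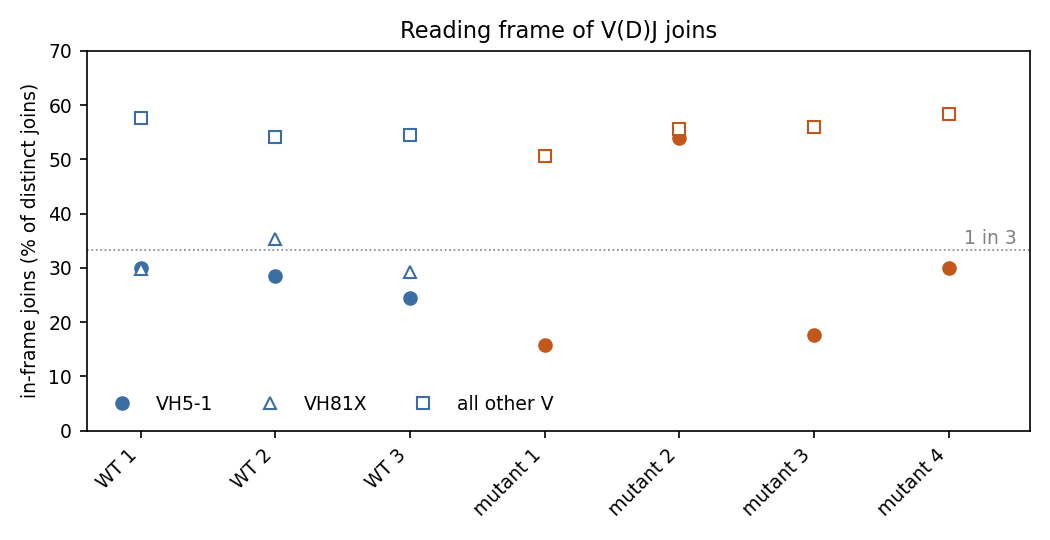
Share of distinct joins that were in frame (y axis, percent) in each library, for VH5-1 (filled circles), VH81X (open triangles, WT only) and all V segments but VH5-1 (open squares), with WT in blue and VH81X-CBEscr/scr in orange and a dotted line at 1 in 3. The VH5-1 points lie near or below that line except in VH81X-CBEscr/scr replicate 2 (53.8%), and the squares lie at 50.5% to 58.4%.

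VH81X also had a low in-frame share. Within the 3 WT libraries, VH5-1 differed from VH81X by -1.02 points ± 5.87 (SD) over lines, with an exact sign-flip p of 1.0, where 3 pairs cannot go below 0.25. VH5-1 was lower than VH81X in only 1 of these 3 libraries. Against all 7 functional V segments within 100 kb upstream, the difference was -5.70 points ± 12.8 (SD, n = 7, lower in 6 of 7) with an exact p of 0.297. VH5-1 had the second lowest in-frame share of the 99 V segments with at least 100 distinct joins. Their median was 63.1% and their highest value 72.2%. V_115572761 was lower (25%), and V_115999120 and V_115039214 (28.4% each) were next above VH5-1.

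Between genotypes, the in-frame share of VH5-1 lines averaged 30.1% ± 8.12 for WT (SD, n = 3) and 32.4% ± 19.6 for the mutant (SD, n = 4). The difference of 2.26 points had an exact permutation p of 0.914. Without VH81X-CBEscr/scr replicate 2 it was -6.95 points.

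The D segment was sought in the inserted bases of each join, as the D core with the longest exact match of at least 7 bases. A D core was found in 129 of 175 VH5-1 joins (73.7%) and in 73.9% of other V joins. These include joins that matched several cores, 26 of the 175 VH5-1 joins (14.9%) and 12.03% of other V joins. Such joins were counted for no single core. The shares of single cores given below therefore leave them out and are not the complete use of a D segment. The following D cores are shown because their shares in VH5-1 joins lay farthest from those in other V joins. DFL16.1 is the D segment farthest from JH, and the other lies between it and DQ52, the D segment nearest to JH. Their cores are written on the coding strand.
D_114705399 (chr12:114705399-114705415, minus strand): CCTACTATAGGTACGAC
DFL16.1 (chr12:114734544-114734566, minus strand): TTTATTACTACGGTAGTAGCTAC

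D_114705399 was found in 41 of 175 VH5-1 joins, or 23.4% (interval 17.8% to 30.2%), against 11% of other V joins. These 41 joins include the largest join shown above for 5 of the 7 libraries, which are therefore no separate evidence. DFL16.1, the D core most used by other V segments (14.8%), was found in 7 of 175 VH5-1 joins, or 4.00% (1.95% to 8.03%). DQ52 was found in 2.29% of VH5-1 joins and 2.20% of other V joins.

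By library, D_114705399 made up 18.0% and 30.6% of VH5-1 joins in WT replicates 1 and 3 and 21.1%, 7.69%, 35.3% and 15% in the mutant libraries. Its share of other V joins in these 6 libraries was 10.3% to 11.3%. It was higher in VH5-1 joins in 5 of 6 libraries, by 10.3 points ± 10.5 (SD, n = 6), with an exact sign-flip p of 0.0625 and an adjusted p of 0.172 over the 11 D cores tested. DFL16.1 was lower in 5 of 6, by a mean difference of -9.18 points ± 8.69 (SD, n = 6), with the same p values. VH81X-CBEscr/scr replicate 2 was the exception in both, with 1 and 3 of its 13 joins. D_114719358, another D core, was higher in VH5-1 joins in 0 of 6 libraries. Its mean difference was -3.29 points ± 2.84 (SD, n = 6), with an exact sign-flip p of 0.0312 and an adjusted p of 0.172. No D core passed the threshold after adjustment. The smallest p that 6 libraries allow is 0.0312, and over 11 D cores a single core at that value cannot pass by itself.

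The segments next to VH5-1 had shares between those of VH5-1 and of all other V segments. D_114705399 was found in 21.7% of VH81X joins in WT, 17.5% of VH2-2 joins and 16.6% of VH5-4 joins, and DFL16.1 in 7.15%, 9.77% and 10.3%. In WT alone, VH5-1 had 25.5% (interval 18.1% to 34.5%) and 2.83% (0.967% to 7.99%). Both VH81X values lay inside these intervals, so VH81X was not set apart from VH5-1. In out-of-frame joins alone, D_114705399 made up 23.6% in VH5-1 and 13.6% in other V segments, and DFL16.1 3.15% and 14.1%.

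**Figure D5:**
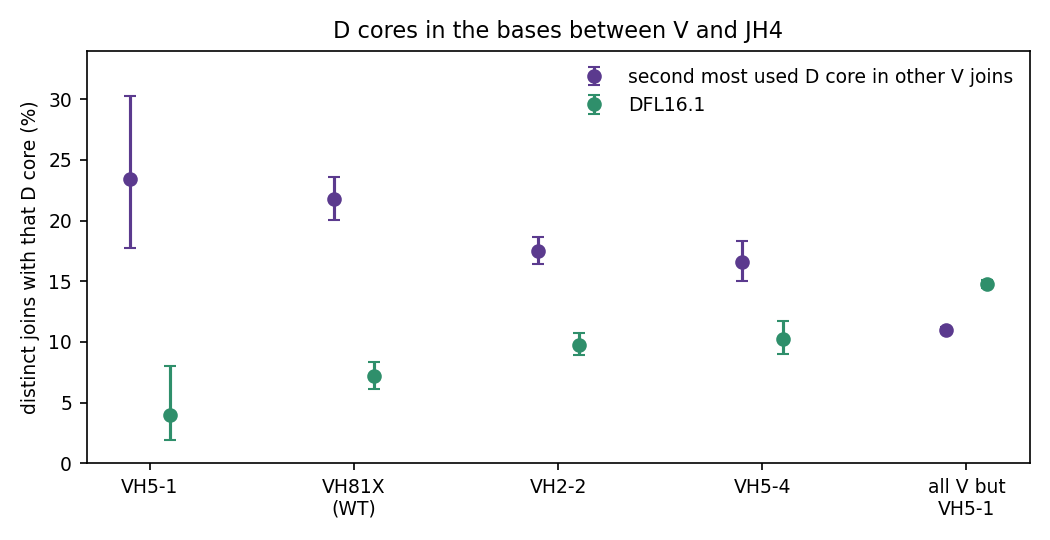
Share of distinct joins with the core of D_114705399 (purple) and of DFL16.1 (green) in VH5-1, VH81X (WT only), VH2-2, VH5-4 and all V segments but VH5-1 (y axis, percent), with 95% Wilson intervals. The purple points run from 23.4% in VH5-1 to 11% in all other V segments, and the green points from 4.00% to 14.8%.

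Across the 7 libraries, the segments whose log2 share was most like that of VH5-1, among all that passed the filter, were V_115241776 (Pearson r = 0.908, Spearman rho = 0.893), V_116285786 (0.711 and 0.643) and V_115635402 (0.686 and 0.75). These values describe 7 libraries that share their totals and bear no test.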

How the data were processed

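HTGTS junctions were read from 7 deposited files, 1 per library. The submitters' processing notes name Bowtie2 and the build mm9. Versions and filters are not given in the sources used here. Per the file headers, each line is 1 sequenced read with its junction position, strand and sequence, and duplicate lines are marked and kept. No deposited column holds counts, so lines were counted here.

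Junctions were joined into V segments with gaps of at most 300 bases and at least 10 junctions, over all libraries. V names came from a gene table (GRCm38.p6) by spacing within 60 bases of tolerance. D cores were read from D junctions, DQ52 and DFL16.1 by position, use and length. The members, lists and tests were chosen with earlier results of these data known. The text names VH5-1, the 3 used segments beside it, its neighbours in rank and the 3 segments most like it across libraries.

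Genotypes were compared by exact permutation tests and, over the V segments whose mean in one of the groups was 10 junctions or more, by limma-voom (limma 3.58.1, R 4.3.3), tested on simulated data. Within-library differences were tested by exact sign flips. For in-frame shares and D cores, a library needed at least 10 VH5-1 lines, or 10 distinct joins where these were counted. The test of bases lost against VH81X had no such minimum. All tests are two-sided. Prey sequences were matched with bwa 0.7.19. Python 3.11.15, SciPy 1.17.1, pandas 2.3.3 and Matplotlib 3.10.9 were used. Duplicate lines, distinct joins, totals, filters, scaling, left-out libraries and the replicate number as a block were tried as alternatives.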

Additional observations from a re-analysis of the deposited data

How the results depend on the processing

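With each library left out in turn, the log2 difference in VH5-1 share ran from -1.04 (without WT replicate 2) to 0.17 (without WT replicate 3), and the limma-voom log2 fold change from -1.01 (adjusted p = 0.0178) to 0.064. Its other settings kept the direction and stayed above an adjusted p of 0.05. The number of V segments past the threshold, 6, was 3 with VH81X left out of the total, and 4 to 9 with libraries left out. The mean difference in in-frame share of VH5-1 against other V segments stayed negative throughout. It was -28.0 to -21.2 points with libraries left out and -21.7 (exact sign-flip p = 0.0625) on lines not marked as duplicates. Against V segments within 100 kb it was -5.70. Against VH81X in WT it was -1.02, with VH5-1 lower in only 1 of 3 libraries. The genotype difference in in-frame share turned to -0.359 points on lines not marked as duplicates, and ran from -6.95 to 8.50 with libraries left out (-2.40 without WT replicate 3). The genotype difference (mutant minus WT) in the log2 ratio of VH81X to VH5-1 was -6.12 to -4.98 with libraries left out. Exact permutation cannot go below p = 0.0667 there. For the log2 ratio of VH2-2 to VH5-1, the genotype difference was 1.48 (exact permutation p = 0.0286) over distinct joins. It was 0.90 (exact permutation p = 0.286) on lines not marked as duplicates and 0.85 to 2.05 with libraries left out. Bases lost, inserted length and both D core shares kept their direction and their side of the threshold in all alternatives run. The cause of these changes was not tested. Low counts limit the values of single libraries, as in WT replicate 2, which had 14 VH5-1 lines from 7 joins.

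The replicate numbers of the labels did not pair the libraries: deviations of same-numbered libraries correlated by -0.285, -0.00725 and 0.120 over 129 V segments. With the replicate number as a replicate block, the VH5-1 log2 fold change in limma-voom was -0.48 (adjusted p = 0.885), and 2 V segments passed the threshold. The genotype difference in the log2 ratio of VH81X to VH5-1 was then -5.68 (exact sign-flip p = 0.25, the smallest that 3 pairs allow).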
